A study of Mus musculus with 3 samples.

Results

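The genes described here are the olfactory receptor genes that lie on both sides of the mouse beta-globin genes on chromosome 7. They were taken as every protein-coding gene of the GENCODE annotation of build mm10 whose symbol begins with Olfr and that lies in chr7:102000000-105500000. The rule used position and name alone and no measured value. It found 129 genes. Olfr643 had no coding transcript in the annotation set used, so its promoter could not be placed, and 128 members were assessed among the 21851 protein-coding genes with a coding start site. Another 1006 Olfr genes lie elsewhere in the genome.

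Liver taken from embryos of 13.5 days was assayed by DNase-seq, which sequences the ends that the nuclease DNase I leaves where it reaches open DNA. The labels give wild-type mice of strain C57BL/6N,129 with a YAC (yeast artificial chromosome, a large cloned piece of DNA) named A20 in single copy, whose insert the labels do not name. There was 1 group of 3 libraries, called replicates 1 to 3, all with the same strain, stage and transgene, and no treatment or control tissue, so no test between groups was possible. The labels number the libraries as biological replicates, and they name 1 donor and a separate biosample for each library. The spread between libraries may be technical, biological or both, which cannot be told apart here. Each library had its own list of peaks called by the authors, with 34369, 122281 and 60862 peaks in replicates 1, 2 and 3, and read totals were not used here. The tissue is a mixture of cells, and fewer cells of a type with open DNA cannot be told apart from less signal per cell.

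Olfactory receptors are G protein-coupled receptors that detect odorants at the surface of sensory neurons in the nose. Each such neuron expresses 1 receptor gene from 1 allele, while the other receptor genes are held in compact, silenced chromatin. The genes around the beta-globin locus belong to class I, the receptor class shared with fish, and most have a single coding exon preceded by non-coding exons. The beta-globin genes encode a chain of haemoglobin and are driven in red cell precursors, the main cells of the liver at this stage, by a distal locus control region. The array thus holds receptor genes that flank a locus at work in another cell type.

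The members spanned chr7:102476579-105369355, a stretch of 2.89 Mb from Olfr543 to Olfr692. The beta-globin genes sat in a gap of 87.6 kb between Olfr67 and Olfr66. Distances are given from the start site of the embryonic globin gene Hbb-y. On the side of the adult globin genes lay 77 members, the nearest 61.4 kb and the farthest 1372 kb away. On the side of the control region lay 51 members, from 33.0 to 1515 kb away. The strands were mixed, with 65 members on the plus strand and 63 on the minus strand.

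Of the peaks in the array, 6 are shown as sequence because the results below turn on them. The first lies at the start site of Olfr575 (chr7:102958701-102958920), the second at that of Olfr658 (chr7:104647161-104647440) and the third in the coding exon of Olfr68 (chr7:103777726-103777900). The last 3 were found between genes in all 3 libraries: that beyond Olfr65, with the highest signal of these in replicates 2 and 3 (chr7:103910081-103910320), its neighbour before Olfr633 (chr7:103942841-103943060), and the peak with the highest replicate 1 signal of those between genes (chr7:102513141-102513380). All are on the plus strand of GRCm38.p6, which is mm10. Capitals mark bases in a footprint, a short stretch the authors called as protected from the enzyme, in at least 1 library.
Olfr575 promoter: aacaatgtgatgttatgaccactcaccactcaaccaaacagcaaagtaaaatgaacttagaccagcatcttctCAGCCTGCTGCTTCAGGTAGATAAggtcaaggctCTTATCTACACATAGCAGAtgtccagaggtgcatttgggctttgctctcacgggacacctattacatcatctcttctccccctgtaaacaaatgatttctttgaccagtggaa
Olfr658 promoter: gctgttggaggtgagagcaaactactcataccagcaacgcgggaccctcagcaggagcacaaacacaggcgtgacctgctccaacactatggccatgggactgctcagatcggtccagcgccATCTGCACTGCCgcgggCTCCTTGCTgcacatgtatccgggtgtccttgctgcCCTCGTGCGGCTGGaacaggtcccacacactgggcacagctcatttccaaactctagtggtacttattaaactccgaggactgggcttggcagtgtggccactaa
Olfr68 coding exon: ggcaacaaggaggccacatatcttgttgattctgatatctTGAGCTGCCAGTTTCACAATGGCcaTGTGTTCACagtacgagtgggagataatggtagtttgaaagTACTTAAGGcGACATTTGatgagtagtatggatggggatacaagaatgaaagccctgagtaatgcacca
region beyond Olfr65: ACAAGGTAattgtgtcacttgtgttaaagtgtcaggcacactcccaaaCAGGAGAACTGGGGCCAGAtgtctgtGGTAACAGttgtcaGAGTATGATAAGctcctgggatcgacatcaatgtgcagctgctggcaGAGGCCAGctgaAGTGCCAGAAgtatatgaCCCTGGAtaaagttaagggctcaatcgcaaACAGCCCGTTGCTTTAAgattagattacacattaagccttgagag
region before Olfr633: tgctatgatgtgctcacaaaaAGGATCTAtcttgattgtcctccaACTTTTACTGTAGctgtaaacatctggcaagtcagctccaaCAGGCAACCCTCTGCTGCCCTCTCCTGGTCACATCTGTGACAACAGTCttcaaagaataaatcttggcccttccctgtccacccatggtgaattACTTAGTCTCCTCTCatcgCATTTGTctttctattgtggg
region between Olfr545 and Trim21: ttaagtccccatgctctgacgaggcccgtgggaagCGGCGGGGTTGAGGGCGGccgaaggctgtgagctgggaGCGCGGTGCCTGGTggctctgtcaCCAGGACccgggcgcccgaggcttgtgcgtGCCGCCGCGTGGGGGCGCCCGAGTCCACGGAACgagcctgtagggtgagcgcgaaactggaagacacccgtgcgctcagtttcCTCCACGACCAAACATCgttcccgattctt

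Almost no receptor promoter around the globin genes had a peak. Windows of 1000 bp to each side of every coding start site were taken as promoters, and a peak counted where it overlapped by at least 1 bp. In replicate 1 a peak was listed at 1 of 128 promoters (0.781%), against 54.0% of all protein-coding genes. In replicate 2 it was 8 promoters (6.25%), against 67.3%, and in replicate 3 it was 4 (3.13%), against 56.4%. The mean share over the libraries was 3.39% ± 2.74 (SD, n = 3). In at least 1 library 8 members (6.25%) had a peak, against 67.9% of all protein-coding genes, and in all 3 libraries only Olfr658 did, against 51.4%. The other 120 promoters had no listed peak in any library, which does not by itself show closed chromatin. The count followed the number of peaks listed per library, and without replicate 2 it was 4 in place of 8.

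**Figure D1:**
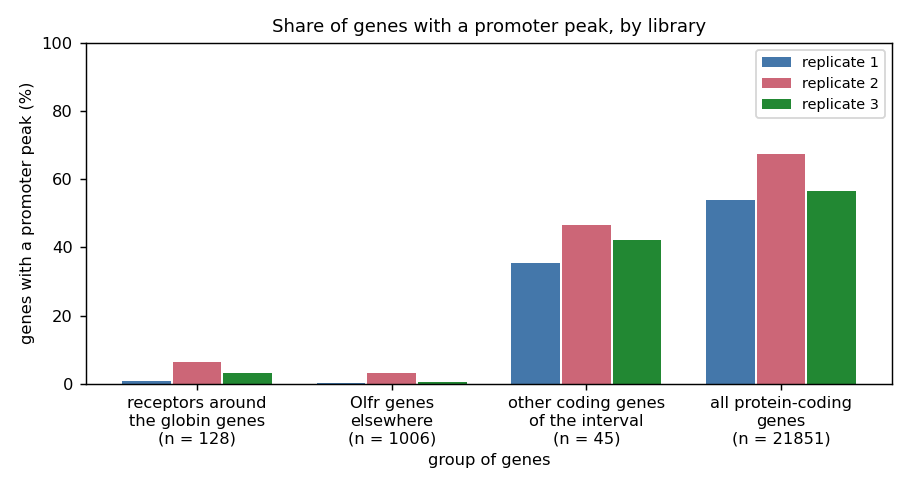
Bars give the share of genes with a promoter peak (percent) in each library for 4 groups of genes, with the number of genes under each group. The receptors around the globin genes reach 6.25% at most, the Olfr genes elsewhere 3.28%, and the other coding genes of the interval lie between 35.6% and 46.7%.

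The receptor genes elsewhere in the genome had a similar scarcity of peaks. Promoter peaks were listed for 2, 33 and 5 of these 1006 genes in replicates 1, 2 and 3 (0.199%, 3.28% and 0.497%), and 34 (3.38%) had one in at least 1 library. The members' shares were the higher in each library, and the difference was not tested. The 45 other protein-coding genes of the same interval had peaks at 16, 21 and 19 promoters, and 22 of them (48.9%) in at least 1 library. These counts are of genes: Rnf121, Xndc1 and Xntrpc counted the same peak, and so did Nup98 and Pgap2. Positions listed in the authors' false discovery rate file, at 0.05 or lower, gave the same picture with a looser criterion. They touched 12 member promoters in at least 1 library, against 69.2% of all protein-coding genes, and left 116 untouched. The 4 members touched without a peak were Olfr552, Olfr571, Olfr610 and Olfr641, where the lowest listed rates were 0.0440, 0.0477, 0.0325 and 0.0321.

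Olfr658 (ENSMUSG00000070421.4, chr7:104642877-104647305, minus strand) was the member with a peak in every library. Its promoter signal, the height the authors gave the peak, was 0.605, 0.434 and 0.305 in replicates 1, 2 and 3. The peak covered the start site, with its middle at 24, -26 and -2 bp in replicates 1, 2 and 3. These signals were higher than those of 48.9%, 40.8% and 44.7% of protein-coding genes, counting genes without a peak as 0. Among protein-coding genes with a promoter peak the median signal was higher, at 3.00, 5.11 and 4.31. Beside all peaks of a library, the signals of Olfr658 lay below the median of replicates 1 and 3 (1.16 and 0.699). They lay above that of replicate 2 (0.386). The stricter of the authors' 2 peak lists held it in replicates 1 and 2 and not in replicate 3. Its promoter had 32 CpG sites, the most of any member, and 35.0% of its 32-base words occur again elsewhere in the genome, which bears on where reads from it could be placed.

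Olfr575 (ENSMUSG00000066269.7, chr7:102952270-102958775, minus strand) had the strongest signal of any member. No peak was listed in replicate 1, and the signal was 0.643 in replicate 2 and 1.92 in replicate 3. Its percentile among protein-coding genes, counting those without a peak as 0, was 45.6 and 60.9 in the latter 2. Both signals lay below the median promoter peak of all protein-coding genes with one, 5.11 and 4.31. The middle of the peak lay 36 bp upstream of the start site, and both peaks were also on the stricter list. In deposited signal, Olfr575 was highest in replicate 3 and missing from replicate 1, and Olfr658 was highest in replicate 1. The order of Olfr658 depended on the measure. By percentile among the peaks of each library it had 16.0, 54.4 and 7.44 in replicates 1, 2 and 3, highest in replicate 2. The peak at Olfr575 held 2 matches, on either strand, to AGATAA, a motif of GATA factors that include the erythroid factor GATA1. Both lay wholly in the bases written in capitals. The peak in Olfr68 and the region near Olfr649 (chr7:104199941-104200120) held 1 match each, neither wholly in a footprint. Of all 25972 genome regions with a peak in all 3 libraries, 7.76% held a match in a window of 200 bp. Binding of GATA1 at Olfr575 was not tested. Only 4.39% of the words of its promoter are repeated elsewhere.

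Among the other 6 members the signals were low, and none was on the stricter list. Olfr68 (ENSMUSG00000061626.6) had 0, 0.285 and 0.415 in replicates 1, 2 and 3, and Olfr646 (ENSMUSG00000073931.3) had 0, 0.236 and 0.298. Both were missing from replicate 1 and present in the other two. Olfr557 (ENSMUSG00000073967.3) had 0.337, Olfr692 (ENSMUSG00000073906.3) 0.170, Olfr65 (ENSMUSG00000110259.2) 0.163 and Olfr554 (ENSMUSG00000073971.3) 0.149, each in replicate 2 alone. Replicate 2 had the longest peak list, and these values lay below its median peak of 0.386. The middle of the peak counted for Olfr646 lay at -708 bp from the start site in replicate 2 and at -784 bp in replicate 3, inside the long annotated span of Olfr643.

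**Figure D2:**
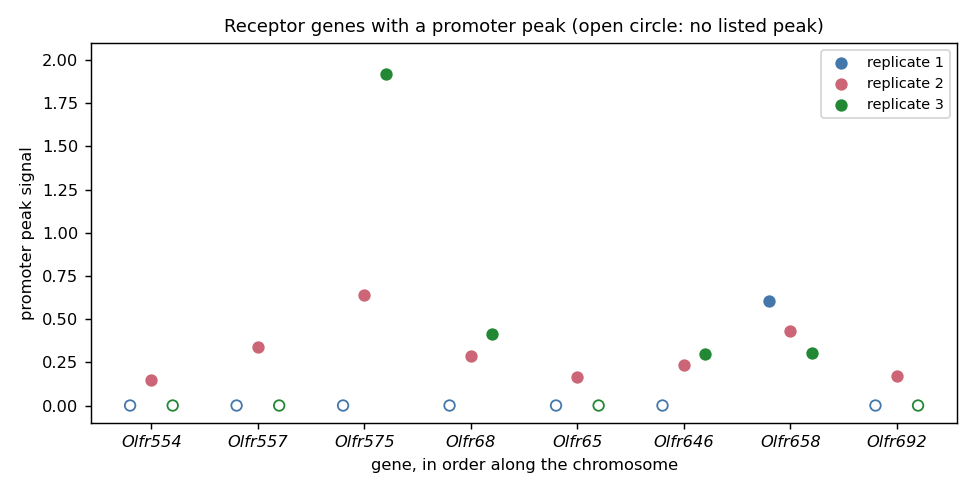
Points give the promoter peak signal of the 8 members with a peak in at least 1 library, coloured by library, with open circles at 0 for no listed peak. Olfr575 in replicate 3 stands highest at 1.92, and replicate 1 has a filled point only at Olfr658.

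In 4 of these 8 members the peak lay in the coding exon and not at the start site. The middle of the peak was 505 bp downstream of the nearest coding start site in Olfr554, 516 bp in Olfr692, 530 to 534 bp in Olfr68 and 639 bp in Olfr65. When only the most upstream coding start site of each gene was used, 5 members had a peak: Olfr557, Olfr575, Olfr646, Olfr658 and Olfr692. Peaks in coding exons were therefore counted for all members, a description chosen after the values were seen. Olfr67 and Olfr69 also had such peaks, far from their promoters, which brought the number to 6 of 128 (4.69%), all in replicate 2 and 1 of them, Olfr68, also in replicate 3. Of all protein-coding genes 44.9% had a coding exon peak in at least 1 library, though these genes differ from receptor genes in the number and length of coding exons. Of the 10 members nearest to Hbb-y, within 95.9 kb, 4 had a coding exon peak: Olfr65, Olfr67, Olfr68 and Olfr69. Of the other 118 members 2 did, Olfr554 and Olfr692. Of the Olfr genes elsewhere 31 of 1006 (3.08%) did. The split at the 10 nearest members was part of the same later description, and the difference was not tested. The highest coding exon signals in replicate 2 were 0.163 in Olfr65, 0.104 in Olfr67, 0.285 in Olfr68 and 0.229 in Olfr69, all below the median peak of that library. Part of this sequence is copied: of the 32-base words of the 2 peaks in Olfr69, 56.2% and 100% occur again elsewhere in the genome, and of those in Olfr68 and Olfr65 25.7% and 23.7%. In the peaks of Olfr67, Olfr554 and Olfr692 none do. The part of copied sequence in these counts was not tested.

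The members next to the globin genes had no peak at their start sites. On the control-region side, Olfr66, Olfr64 and Olfr65 start 33036, 41269 and 50271 bp from Hbb-y, and the first 2 had no promoter or coding exon peak in any library. On the other side, Olfr67, Olfr68 and Olfr69 start 61395, 73518 and 81622 bp away. Of the 2 ends of the array, Olfr543 had no peak and Olfr692 had the weak coding exon peak given above. Between them the globin promoters carried higher signals, with 0.605, 2.74 and 4.03 at Hbb-bt and 1.10, 4.29 and 5.57 at Hbb-bs, the adult genes, in replicates 1, 2 and 3. Hbb-y, an embryonic gene, had 0.632 in replicate 2 alone, and Hbb-bh1 and Hbb-bh2 had no listed peak.

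The promoters of the members were poor in CpG sites. They had a median of 8 CpG sites (range 2 to 32) in the 2 kb around the most upstream coding start site, against 63 for all protein-coding genes. Their median GC content was 38.3%, against 51.4%, and a median of 20.2% of the sequence was annotated repeat, against 13.7%. A peak counted at any coding start site, so it could lie outside the sequence in which CpG sites were counted. Beside genes with equally few CpG sites by this count, the members' share was near that of other genes in the lowest class and below it in the next. With 0 to 9 sites, 5 of 80 members (6.25%) had a peak in at least 1 library. Of genes that are no Olfr genes 75 of 1293 (5.80%) did, and of Olfr genes elsewhere 14 of 752 (1.86%). Of the 5 members, only Olfr575 and Olfr646 kept a peak with the most upstream start site alone. The peaks of Olfr554, Olfr65 and Olfr68 lay in the coding exon, outside the 2 kb. The other genes of this class were not recounted in this way. With 10 to 19 sites, 2 of 42 members (4.76%) had a peak, against 17.5% of genes that are no Olfr genes and 5.86% of Olfr genes elsewhere. With 20 to 29 sites, 0 of 5 members had one, against 37.1% and 20%. Olfr658, with 32 sites, was alone in the next class, where 53.7% of genes that are no Olfr genes had a peak. These shares are descriptions, since neighbouring genes are not independent and no test was run.

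**Figure D3:**
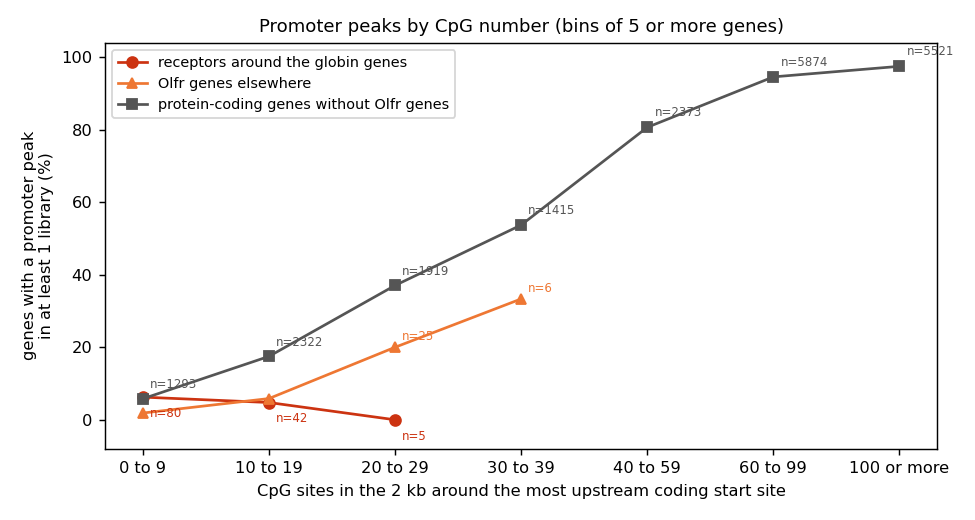
Points give the share of genes with a promoter peak in at least 1 library (percent) by the number of CpG sites, for classes of 5 or more genes. Peaks count at any coding start site, and CpG sites around the most upstream one alone. The members lie near the other genes at 0 to 9 sites (6.25% and 5.80%) and below them at 10 to 19 (4.76% and 17.5%).

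Receptor genes arose by duplication, and copied sequence can hide a peak because reads from it cannot be placed at 1 position. Among members a median of 6.18% of the 32-base words of the promoter occur again elsewhere in the genome (range 0 to 67.1%), and 77 members had less than 10%. Only Olfr596 and Olfr603 had more than 50%, and neither had a peak. The 45 other genes of the interval had a median of 4.47%. Among members with a peak the median was 4.68%, and among members without one 7.28%. How repeated reads were treated is not given in the sources used here, and its part in the result was not tested.

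Other gene families inside the array gave a contrast at the same chromosomal address. Between the first and last member lie 27 other coding genes, and 11 of them had a promoter peak in at least 1 library and 6 in all 3. Without the 5 globin genes the counts were 8 and 4 of 22. The Trim genes, which encode ubiquitin ligases with roles in antiviral defence, made up 12 of these. A peak was listed at 7 of them in at least 1 library and at 4, Trim21, Trim68, Trim34a and Trim12c, in all 3. Over all protein-coding genes 67.9% had a peak in at least 1 library and 51.4% in all 3. The counts for the Trim genes and for the 27 and 22 genes all lay below these shares. Trim21 had 1.77, 6.46 and 5.21 in replicates 1, 2 and 3, above every receptor promoter in each library. This did not hold for all Trim genes. Trim34a lay below Olfr658 in replicate 1 (0.549 against 0.605) and below Olfr575 in replicate 3 (1.40 against 1.92). Trim5 had only 0.0903, in replicate 2 alone. None of the 5 Usp17l genes, which encode deubiquitinating enzymes, had a peak. The Trim genes had a median of 19.5 CpG sites and the Usp17l genes 6, beside 8 for the members. Over all 45 other genes of the interval, Fam160a2, Nup98 and Pgap2 had the highest mean percentile, the last 2 by the same peak, and 23 genes had no peak. The 27 Olfr pseudogenes of the interval had 1 promoter peak, at Olfr647-ps1, with 0.288 in replicate 2.

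The stretch from the first to the last member held 71 regions after the peaks of the 3 libraries were merged, and 21 of them lay in the globin block. The remaining 50 regions lay in 2805 kb of receptor array, a density of 1.78 per 100 kb, against 4.84 in the whole genome and 24.0 in the globin block. By library, the array had 0.428, 1.60 and 0.856 regions per 100 kb, against 1.20, 4.32 and 2.16 in the genome, so it was sparser in each. Of the 50 regions 10 were found in all 3 libraries (20%), 11 in 2 and 29 in 1. Over the genome 19.7% of merged regions were found in all 3, so the share of shared regions was near the background. The longest stretch without a region ran for 593 kb (chr7:103119634-103712580) on the adult-globin side and held all start sites of 33 members. The next ran for 336 kb (chr7:104647441-104983340) on the control-region side and held those of 9.

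**Figure D4:**
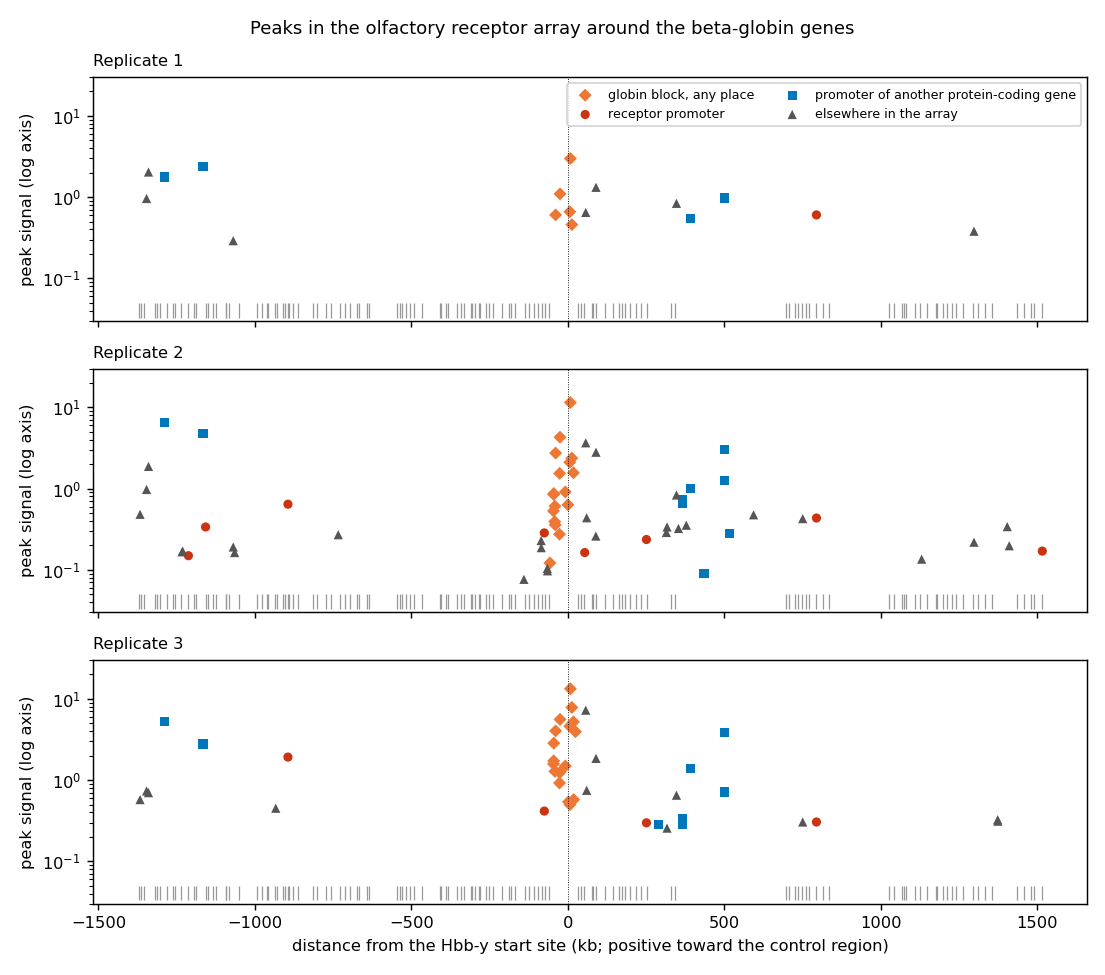
Each point is a merged region in 1 library, by its distance from the start site of Hbb-y (kb) and its peak signal (log axis), and grey ticks mark the start sites of the 128 members. The points crowd in the globin block, and the ticks on the adult-globin side run through a stretch of 593 kb without a point.

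Most regions of the array were not at receptor promoters. Of the 50 regions 21 lay between genes, 11 at promoters of other coding genes, 8 at receptor promoters, 6 in exons, 3 in introns and 1 at a pseudogene promoter. Of the 10 regions in all 3 libraries 4 were at the Trim promoters named above, 1 was at Olfr658 and 5 lay between genes. No region on the adult-globin side within 1000 kb of Hbb-y and outside the globin block was among the 10.

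The 5 shared regions between genes differed in how they varied among libraries. The region at chr7:103910081-103910320, 57.0 kb from Hbb-y and 3859 bp from the nearest start site of Olfr65, had 0.649, 3.66 and 7.25 in replicates 1, 2 and 3. In replicate 3 its signal was the highest of any region in the array outside the globin block. Its ratio of replicate 3 to replicate 1 was 11.2, while the median over all 25972 regions in all 3 libraries was 1.06. Of those regions 99.9% had a lower ratio. The ratio rests on a weak replicate 1 peak, at percentile 19.0 among the peaks of that library and absent from its stricter list. The 3 shared regions on the control-region side of Hbb-y inside the globin block, 6.06, 7.89 and 12.7 kb from its start site, had ratios of 6.96, 4.45 and 17.1. The promoters of Hbb-bt and Hbb-bs had 6.66 and 5.08. The replicate 1 peaks of Hbb-bt and of the regions at 6.06 and 12.7 kb were not on the stricter list either. Among the other shared regions of the array, those at the promoters of Trim12c, Trim21 and Trim34a were also higher in replicate 3 than in replicate 1, with ratios of 3.92, 2.95 and 2.55. The ratio beyond Olfr65 lay within the range of the globin block, and Olfr66, Olfr64 and Olfr65 lie between that region and the block. Whether reads of the A20 insert were placed at the globin genes or here was not tested. This region was picked out once its values were known, and the pattern was not tested.

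The region before Olfr633 (chr7:103942841-103943060), 89.7 kb from Hbb-y, had 1.32, 2.80 and 1.85 and a ratio of replicate 3 to replicate 1 of 1.40. It held a match to the core of the motif of CTCF, a protein that bounds chromatin loops. The core was searched as CC, any 3 bases, AG, any 2 bases and GGC, and the match lay wholly in the bases in capitals. Of all 25972 regions found in all 3 libraries, 24.8% held a match to this core in a window of 200 bp. A single match thus does not set this region apart. The middle of the region was 1486 bp from the start site of Olfr633, so it counted for that gene only with a window of 2500 bp. At the far end of the adult-globin side, a region near Olfr545 (chr7:102506941-102507140) had 0.963, 0.976 and 0.734. The next region (chr7:102513141-102513380) had 2.04, 1.88 and 0.699, with 26 CpG sites in 240 bp and a GC content of 67.1%. The region at chr7:104199941-104200120, 4046 bp from Olfr649, had 0.840, 0.834 and 0.651. These 3 had ratios of 0.762, 0.343 and 0.775, and Olfr658 had 0.504. In deposited signal all of these were lowest in replicate 3, where the region beyond Olfr65 was highest. By percentile among the peaks of each library, the regions near Olfr545 and Olfr649 were instead lowest in replicate 1, at 39.5 and 32.1.

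**Figure D5:**
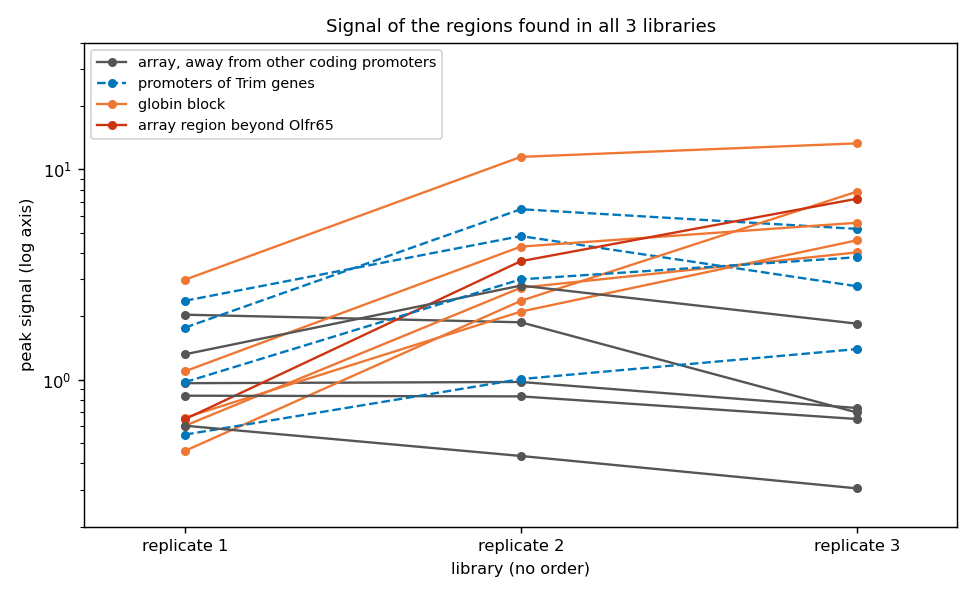
Lines join the peak signal (log axis) of each region in all 3 libraries, coloured by where the region lies. The region 57.0 kb from Hbb-y has 0.649 in replicate 1 and 7.25 in replicate 3 and lies among the globin regions. The promoter of Trim21, with 1.77, 6.46 and 5.21 in replicates 1, 2 and 3, also lies in their range. Olfr658 and 3 of the other array regions are lowest in replicate 3.

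Sequence motifs in the promoters of the members were compared with those of other genes. Motifs were searched on both strands from 250 bp before to 50 bp after the most upstream coding start site. TATAAA, the TATA box, occurred in 31.3% of members, 33.6% of Olfr genes elsewhere and 12.5% of all protein-coding genes. TAATTA, bound by homeodomain factors such as LHX2 that take part in receptor choice, occurred in 15.6%, 25.2% and 5.13%. TCCC and GGGA with any 2 bases between them, bound by the EBF factors of sensory neurons, occurred in 2.34%, 2.49% and 0.989%. AGATAA occurred in 25.0%, 25.2% and 9.93%, and TGANTCA, bound by the erythroid factor NFE2 and by AP-1, in 11.7%, 10.4% and 6.70%. CCNCNCCC, bound by KLF factors, occurred in 7.03%, 7.65% and 56.0%, and the CTCF core in 2.34%, 1.49% and 9.81%. GATA matches were thus as frequent in members as in receptor genes far from the globin locus. A match is a stretch of letters and not a bound site. The groups also differ in base composition around the start site. The median GC content was 38.3% in members, 36.1% in Olfr genes elsewhere and 51.4% in all protein-coding genes. Its part in the motif shares was not tested.

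The genes that serve receptors in sensory neurons had promoter peaks in part. Of 14 genes of odour transduction and receptor transport, 3 had a promoter peak in all 3 libraries (Pde1c, Reep1 and Ric8b), 3 in 2, 1 in 1 and 7 in none. Over all protein-coding genes 51.4% had a peak in all 3 libraries and 67.9% in at least 1, so both counts lay below the background. The 7 were Omp, the marker of mature olfactory neurons, the channel genes Cnga2, Cnga4, Cngb1 and Ano2, and the transporters Rtp1 and Rtp2, which bring receptors to the cell surface. Of 11 regulators of receptor choice 9 had a peak in all 3 libraries, among them Ldb1, Kdm1a and Lbr, and Ebf4 and Emx2 had one in replicate 2 alone. Against the same 51.4% this is more, but several of these genes are used in many tissues and the list was not tested. Markers matched the labelled tissue in part. Of 5 erythroid markers 4 (Gata1, Klf1, Tal1 and Epb41) had a peak in all 3 libraries and Alas2 in 2, and of 5 hepatoblast markers 2 did (Foxa3 and Prox1), Afp and Hnf4a in 2 and Alb in none. Of 4 olfactory neuron markers Gng13 had a peak in 2 libraries and Omp, Stoml3 and Cnga2 had none.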

How the data were processed

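DNase-seq was measured in 3 libraries of 1 group. For each library the authors deposited peaks with a signal column, positions with a false discovery rate (an adjusted p-value) of at most 0.05, and footprints, all in build mm10 per the labels. The peak caller, its version and the handling of repeated reads were not given in the sources used here. No unit is stated for the deposited signal. Values below 2 were whole multiples of 1 step per library within 0.02 steps. Of the 2 lists per library the one with more peaks was used.

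Start sites came from GENCODE M21 basic. A promoter's signal was its highest peak, and overlapping peaks of different libraries (at least 1 bp) were joined into regions. Python 3.11.15, numpy 2.4.6 and pandas 2.3.3 were used, and scripts were tested on simulated data. The members and lists were chosen with earlier results of these data known. Named genes were all members with a peak, the 3 nearest to the globin genes on each side, the end members, the globin genes and the regions found in all 3 libraries. Read totals were not used, and the labels do not say that a step is 1 count, so no counting interval is given. Alternatives were the stricter list, other windows, start sites and overlaps, equal numbers of peaks, the false discovery rate positions and each replicate left out. Neighbouring windows can overlap and share a peak.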

Additional observations from a re-analysis of the deposited data

How the results depend on the processing

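The number of members with a promoter peak (8) was 2 with the stricter peak list and 2 with the 34369 strongest peaks of each library (Olfr575 and Olfr658 in both). It was 14 when windows reached 2500 bp, and 5 from the most upstream coding start site alone. Under these settings the share of all protein-coding genes with a peak was 60.6%, 56.8%, 71.0% and 65.9%. Leaving out a replicate gave 4 to 8, with 4 without replicate 2. Windows of 500 bp gave 7, an overlap of at least 50 bp gave 8, and false discovery rate positions 12. The peak of Olfr658 in every library was lost with the stricter list and with equal numbers of peaks. Without replicate 1, 4 members had a peak in both remaining libraries. The number of array regions found in every library (10) was 6 with the stricter list, 9 with equal numbers of peaks and 10 with an overlap of at least 50 bp. It ranged from 10 to 19 with a replicate left out, with 19 without replicate 1. Fewer peaks or libraries enter these counts by construction, and the cause of other shifts was not tested. No paired analysis was possible because there was 1 group. Weak promoter peaks were listed mostly in replicate 2, which had the longest list, so their absence from the other libraries is limited by the length of those lists.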
